A study of Mus musculus with 148 samples.

Results

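The cells described here are the tumor macrophages that the depositors named Mac Cd81. A well belonged to them when the deposited cell table annotated it as Mac Cd81, and its gene counts were then read from the plate on which the cell had been sorted. The rule gave 409 Mac Cd81 cells among 23425 annotated immune cells. They made up 409 of 1791 macrophages, beside 494 Mac Isg20, 449 Mac Gpnmb and 439 Mac Cd9 cells. Each of the 27 mice gave at least 1 such cell, and 57 of 63 combinations of mouse and tissue held one. Primary tumors gave 160 of these cells, sections of lung metastases 96, metastatic cores 79, invasive margins 10, distal normal lung 22, relapse-free lungs 29, normal lungs 12 and lungs before metastasis 1.

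The mice were C57BL/6 females carrying a photoactivatable green fluorescent protein (PA-GFP). EO771 is a mouse breast cancer cell line, and the cells used carried the red fluorescent protein tdTomato. They were injected into a mammary gland of 8-week-old mice, the tumor was resected 3 weeks later, and the lungs were followed by computed tomography until metastases appeared. Tissues were dissociated by machine, the lungs by a program named m_lung and the primary tumors by another named h_tumor. In every comparison of primary tumors with lung samples, tissue and dissociation program therefore cannot be told apart. Single cells were sorted into plates and transcripts were counted as unique molecular identifiers (UMIs, tags that mark single captured transcripts). The Primary samples were mammary tumors of 4 mice (mice 8, 9, 10 and 38). MET samples were lung sections with a metastasis that were sorted for immune cells without photoactivation, MET Core and MET Invasive margin samples were the photoactivated inside and rim of a metastasis, and Distal normal tissue was metastasis-free lung of a mouse with metastases. Relapse-free lungs came from mice that had no metastasis after resection. Pre-MET lungs were taken before metastasis from mice 8, 9 and 10, which bore a tumor and also gave Primary samples. Normal lungs came from control mice of the same strain that bore no tumor. Cells were gated as CD31- CD45+, or as CD31- GFP+ after photoactivation, so the cores and margins passed another gate than the rest. All mice carried PA-GFP and all tumors came from 1 cell line. The mouse was the replicate in the comparisons of tissues, except where sums per mouse and batch are named, and "lesion" denotes the pooled core and section cells of a mouse.

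Macrophages that take up debris display many of the proteins read out here. C1q is the recognition molecule of the classical complement pathway, is built from the chains C1qa, C1qb and C1qc, and is made largely by macrophages. MHC class II molecules such as H2-Ab1, H2-Aa and H2-Eb1, with the invariant chain Cd74, present peptides of engulfed proteins to CD4+ T cells. Cd81 is a tetraspanin, a membrane protein that organises other proteins at the cell surface and is found on many cell types. Tissue-resident and perivascular macrophages are commonly recognised by the mannose receptor Mrc1, Folr2, Lyve1 and the chemokine Ccl8, whereas cells recently derived from monocytes carry S100 proteins and Ly6c2.

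The promoters of genes from the 2 families that lead this population are shown because the genes of each family were high together. They run from 250 bases before to 50 bases after the RefSeq start in GRCm38.p6, 4 of 6 genes looked up had an entry, and H2-Ab1 and C1qa did not. For the MHC class II genes capitals mark ATTGG or its reverse complement CCAAT, the core of the Y box of class II promoters. For the C1q genes capitals mark GAGGAA or its reverse complement TTCCTC, a core bound by the myeloid factor PU.1. H2-Aa lies at chr17:34287774-34288073 on the minus strand, H2-Eb1 at chr17:34305617-34305916 on the plus strand, C1qb at chr4:136886151-136886450 and C1qc at chr4:136892865-136893164, both on the minus strand.
H2-Aa: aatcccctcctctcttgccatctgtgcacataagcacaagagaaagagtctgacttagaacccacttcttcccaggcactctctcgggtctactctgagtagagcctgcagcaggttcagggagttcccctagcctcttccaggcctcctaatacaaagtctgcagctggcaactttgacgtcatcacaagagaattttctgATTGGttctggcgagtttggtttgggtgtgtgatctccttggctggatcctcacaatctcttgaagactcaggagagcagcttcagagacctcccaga
H2-Eb1: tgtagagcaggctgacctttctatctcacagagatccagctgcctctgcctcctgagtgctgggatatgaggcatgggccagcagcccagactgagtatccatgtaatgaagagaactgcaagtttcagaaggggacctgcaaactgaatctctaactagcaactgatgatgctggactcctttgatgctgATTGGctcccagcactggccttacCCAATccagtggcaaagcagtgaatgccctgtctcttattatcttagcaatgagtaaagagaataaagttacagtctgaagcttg
C1qb: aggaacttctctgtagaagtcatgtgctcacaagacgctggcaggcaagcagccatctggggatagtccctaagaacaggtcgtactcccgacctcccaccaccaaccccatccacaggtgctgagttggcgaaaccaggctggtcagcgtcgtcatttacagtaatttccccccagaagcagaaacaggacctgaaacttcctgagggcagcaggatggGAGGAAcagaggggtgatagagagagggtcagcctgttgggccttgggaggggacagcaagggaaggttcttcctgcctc
C1qc: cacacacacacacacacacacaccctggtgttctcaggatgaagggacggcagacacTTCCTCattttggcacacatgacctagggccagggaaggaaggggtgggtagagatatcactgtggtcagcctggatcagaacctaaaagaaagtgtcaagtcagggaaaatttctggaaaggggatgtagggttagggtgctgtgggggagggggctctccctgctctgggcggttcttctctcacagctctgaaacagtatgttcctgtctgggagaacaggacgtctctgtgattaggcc
The Y box core stood 48 bases before the start of H2-Aa and 59 and 35 bases before that of H2-Eb1. GAGGAA stood 30 bases before the start of C1qb, and its complement 193 bases before that of C1qc. On both strands ATTGG was found in 37.4% and GAGGAA in 28.3% of the 32851 promoters in the same table, so a match describes these windows and marks no site of binding.

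Over all batches, depth differed strongly between tissues. The median Mac Cd81 cell held 8661 UMIs in primary tumors, 1458 in lesions, 1430 in lung tissue outside metastases (distal, relapse-free, normal and Pre-MET lungs together) and 1022 in invasive margins. For the tests, counts were summed per mouse and tissue, and levels are given as CPM, the count of a gene scaled by the UMIs of the sum. The 4 primary sums held 81435 to 672043 UMIs from 16 to 57 cells and the 7 lesion sums of at least 10 cells held 14315 to 82331 UMIs from 12 to 55 cells. In lesion mouse 24, a single cell supplied 67.7% of the UMIs. The labels also name a sequencing batch (SB) for each plate. The primary tumors were sequenced in SB128 (mouse 8) and SB132 (mice 9, 10 and 38), the latter without any lesion. In SB128 the median Mac Cd81 cell held 4639.5 UMIs in primary mouse 8, inside the range of the lesions beside it. Sections of mice 36 and 37 held 5373.5 and 2366 UMIs, their cores 3586.5 and 9135, and their distal lung 11372 and 1592. These lesion and lung medians rest on 1 to 8 cells each, and depth differed by batch as well as by tissue.

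C1q and MHC class II transcripts are described first. They had been used in the clustering that named the cells, so their detection describes the population and does not test its name. At least 1 UMI of a C1q chain was found in 160 of 160 Mac Cd81 cells of primary tumors, 148 of 175 of lesions, 63 of 64 of lung tissue outside metastases and 9 of 10 of invasive margins. These 64 cells include the 22 of distal normal lung, from mice with metastases. H2-Ab1 was detected in 93.8%, 97.1%, 96.9% and 100% of them. Cd81, the gene in the name, was detected in 53.1% of primary tumor, 17.7% of lesion and 50% of lung cells. To set cells of unequal depth side by side, each was thinned to 500 UMIs. Cd81 was then seen in 18.1% (exact 95% interval 12.5 to 25.0) of primary tumor cells, 6.86% (3.59 to 11.7) of lesion cells and 28.1% (17.6 to 40.8) of lung cells. Among T cells, which are not named for it, the thinned shares were 5.45%, 1.27% and 1.01%. C1qa behaved with a wider gap, at 77.5%, 38.3% and 51.6% of Mac Cd81 cells against 1.73%, 0.265% and 0.0494% of T cells. These intervals cover counting error only and treat cells, not mice, as units. C1q and MHC class II were thus detected in far more of the cells than Cd81 itself.

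In primary tumors MHC class II genes, C1q and the lipid carrier apolipoprotein E, Apoe, were among the highest transcripts of Mac Cd81, between general cell genes such as Tmsb4x (rank 1), Fth1 (3) and Malat1 (4). Mean levels over the 4 mice were 15002 ± 5610 CPM (SD, n = 4) for H2-Ab1, the class II beta chain, and 10190 ± 2002 CPM for Cd74. C1qb stood at 7816 ± 1952 CPM, C1qa at 4335 ± 197 CPM and C1qc at 3110 ± 635 CPM, while Apoe reached 10968 ± 1995 CPM. C1qa was thus the steadiest of the 3 chains, at 4519, 4177, 4491 and 4153 CPM in mice 8, 9, 10 and 38. H2-Ab1 ranked 2, Apoe 6 and C1qb 12 among all genes in these sums. Transcripts were counted as tags and not per length, so ranks compare tag numbers.

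Among genes at 200 CPM or more, the 10 with the largest ratio to the next highest monocyte or macrophage population described how the Mac Cd81 cells of primary tumors stood apart. Mac Gpnmb, with 7 cells in primary tumors, and Mac Cd9 had too few cells there to be compared. The ratios are a description without a test, since clustering had used these genes. Cbr2, a carbonyl reductase, was at 224 CPM against 0 in each of the others, but mouse 9 supplied 283 of its 398 UMIs and without this tumor its mean was 57.3 CPM, under the 200 CPM of this list. Vcam1, an adhesion receptor, was at 295 CPM against 1.07 CPM in Mon Thbs1 cells. Ccl8 was at 3227 CPM against 102 CPM in Mac Isg20 cells. Acid phosphatase Acp5 (457 against 71.9 CPM), Apoe (10968 against 1772 CPM) and the 3 C1q chains followed. In lesions, where Mac Gpnmb was frequent enough, its cells carried 12094 ± 5736 CPM of Apoe and 212 ± 72.8 CPM of Acp5 (n = 9 mice), beside 8008 ± 9681 and 199 ± 128 CPM in Mac Cd81 (n = 7). Fcgrt, the receptor that recycles antibodies (274 against 55.1 CPM), and the Fc receptor-like gene Fcrls (308 against 66.7 CPM) completed them. MHC class II was not among these genes: the Mon MHC-II monocytes carried more H2-Ab1 (21035 CPM) and Cd74 (14503 CPM) than Mac Cd81. Cd81 was at 553 ± 232 CPM against 280 ± 263 CPM in Mac Isg20, so the spreads overlapped.

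**Figure D1:**
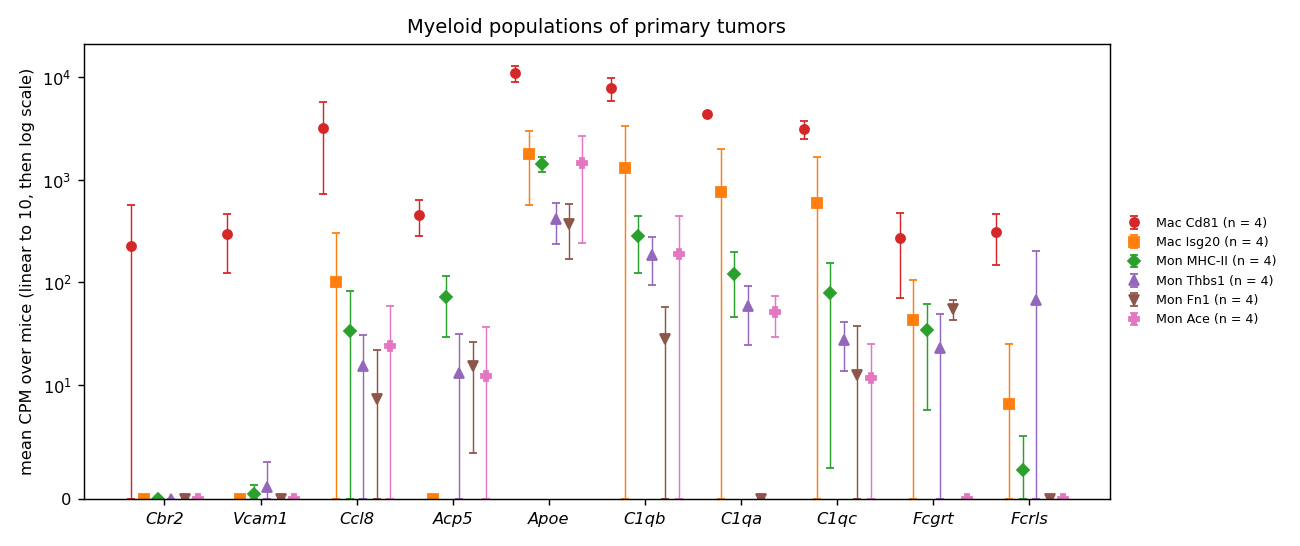
Mean CPM (points, bars ± SD, n = 4 mice each) of the 10 genes with the largest ratio of Mac Cd81 to the next highest population in primary tumors. The 6 monocyte and macrophage populations shown leave out Mac Gpnmb and Mac Cd9. The axis is linear to 10 and logarithmic above. Ccl8 reached 3227 CPM in Mac Cd81 against 102 CPM in Mac Isg20. Cbr2 was at 0 in all of the other 5 populations, and mouse 9 supplied 283 of its 398 UMIs in Mac Cd81.

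The 4 primary tumors were not alike. Mouse 9 carried the lowest H2-Ab1 (6948 CPM against 16417 to 19979 in the other 3) and the lowest Cd74 (7196 CPM). It carried the highest Ccl8 (5750 CPM), Mrc1 (1827 CPM) and Cbr2 (724 CPM). Mouse 8 was at the other end for Ccl8 (418 CPM) and had no Cbr2 UMI. It was the only primary tumor sequenced in SB128 and held 81435 UMIs from 16 cells, against 390750 to 672043 UMIs in the others. For mouse 8, tumor, batch and depth cannot be told apart. Not every resident gene was highest in mouse 9: Folr2 peaked in mouse 8 (332 against 264 CPM) and Ms4a7 in mouse 10 (1522 against 1257 CPM).

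The share of Mac Cd81 among immune cells asked where these macrophages lie along the course of metastasis. They were most frequent in primary tumors, at 5.42%, 11.0%, 12.4% and 10.9% of immune cells in mice 8, 9, 10 and 38 (mean 9.94 ± 3.08, n = 4). Metastatic cores held 3.10 ± 3.73% (n = 13, lowest 0, median 1.27, highest 13.2) and sections 2.67 ± 3.02% (n = 13, lowest 0.580, median 1.74, highest 12.2). Margins (0.925 ± 0.907%, n = 7), distal lung (0.871 ± 1.02%, n = 14), relapse-free lungs (0.768 ± 0.636%, n = 6), normal lungs (0.608 ± 0.309%, n = 3) and Pre-MET lungs (0.0737 ± 0.128%, n = 3) lay lower. All 4 primary tumors lay above the median core and section, but mouse 26 reached primary tumor values in both its section and its core. The core of mouse 24, at 7.81% (10 of 128 immune cells), also lay above primary mouse 8.

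Primary tumors exceeded cores by 6.83 percentage points (two-sided exact permutation test, p = 0.0126, adjusted over 5 comparisons 0.0210) and sections by 7.26 points (exact p = 0.00504, adjusted 0.0126). Within mice, the section exceeded distal normal lung by 1.76 points and was higher in 10 of 13 mice (exact sign-flip test, p = 0.00342, adjusted 0.0126). Without mouse 26 this difference was 0.934 points (exact test, adjusted p = 0.0171), and as a percent of macrophages it did not pass (exact test, adjusted p = 0.441). Cores exceeded margins by 2.68 points in 6 mice, higher in 4 (exact p = 0.312, the smallest possible being 0.0312, adjusted 0.391), and cores exceeded sections by 0.661 points, higher in 5 of 12 mice (exact p = 0.441). In SB128, the batch that primary mouse 8 shared with lesions, this tumor held 5.42%, 4 sections held 0.891% to 1.82% and 2 cores held 0.810% and 1.27%. Restricted to cells of at least 1000 UMIs the 3 differences that passed no longer did (adjusted p 0.109, 0.0630 and 0.391), and primary tumors against cores also lost the call without primary mouse 9, 10 or 38 (adjusted p 0.0595 to 0.0774). Because these are shares of sorted cells, a smaller share and an enlarged remainder cannot be told apart.

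**Figure D2:**
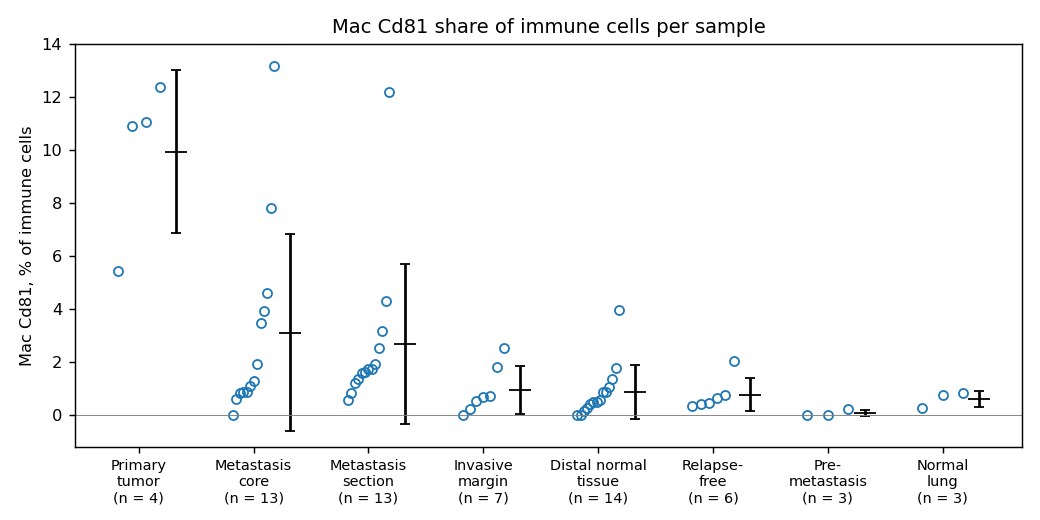
Percent of immune cells annotated as Mac Cd81 in each mouse (points) for the 8 tissue statuses, with mean ± SD beside them. The 4 primary tumors lie between 5.42% and 12.4%, and mouse 26 gives the highest core (13.2%) and section (12.2%).

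Levels of some defining genes followed the sequencing batch as well as the tissue, so the batches are described before the tissues are compared. Among sums per mouse and batch, Cd74 lay at 1117 to 5523 CPM in the 9 sums sequenced up to SB123 and at 7196 to 41673 CPM in the 9 sums from SB124 on, without overlap. In lesions alone, C1qa lay at 186 to 1063 CPM (7 sums of 7 mice) up to SB123 and at 1744 to 3921 CPM (5 sums of 4 mice, mouse 31 in 2 batches) from SB124 on. C1qc showed the same step in lesions (106 to 1118 CPM against 1916 to 5767 CPM). H2-Ab1 did not, at 11130 to 20824 CPM against 11023 to 27497 CPM. B cells, another population that makes Cd74, gave 462 to 4459 CPM (19 sums of 13 mice) and 8041 to 16379 CPM (12 sums of 10 mice) of Cd74 on the same sides of this line. The step in Cd74 was therefore present in another population too, and it bears on each comparison of primary tumors with samples sequenced before SB124, because every primary tumor lies after it. The division at SB124 was chosen after these values had been seen.

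**Figure D3:**
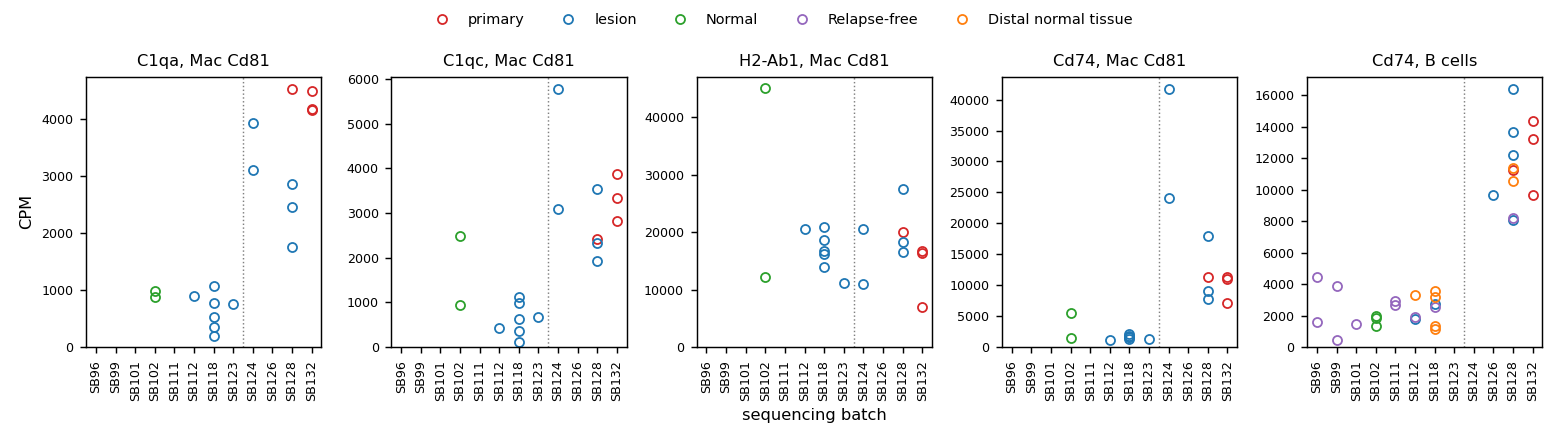
CPM of C1qa, C1qc, H2-Ab1 and Cd74 in Mac Cd81 sums, and of Cd74 in B cells, by sequencing batch from SB96 to SB132, coloured by tissue. The dotted line separates SB123 from SB124: Cd74 of Mac Cd81 stays at or under 5523 CPM before it and at or above 7196 CPM after it, whereas H2-Ab1 ranges overlap.

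Comparing the 4 primary tumors with the lesions of 7 mice asked how Mac Cd81 cells differ between the site of origin and the lung metastasis. Ccl8, Mrc1, Ms4a7, Adgre1, Lgmn and Dab2 were higher in primary tumors, and Crip1, Sgk1, S100a4, S100a8 and S100a10 were among the genes higher in lesions. Of 1310 genes tested, 20 passed an adjusted p of 0.05 (edgeR quasi-likelihood, 1.53%), 6 of them higher (0.458%) and 14 lower (1.07%) in primary tumors. CPM values did not overlap between the groups for 44 genes (3.36%).

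Ccl8, a chemokine of resident macrophages that attracts monocytes and T cells (chr11:82115185-82116799, mm10), was at 418, 5750, 1878 and 4862 CPM in primary mice 8, 9, 10 and 38. In the lesions it was at 0, 0, 72.9, 399, 95.1, 18.0 and 0 CPM in mice 23, 24, 26, 28, 30, 31 and 36. These groups did not overlap, although the lowest primary and the highest lesion sum were close. The difference was 5.55 on the log2 scale (SE 0.75, edgeR adjusted p = 0.000397). Lesions of mice 32 and 37, too small for this fit with 7 cells each, held 574 and 751 CPM, above primary mouse 8. Mrc1, the mannose receptor CD206 (chr2:14229392-14332057), was at 491, 1827, 871 and 513 CPM in primary tumors and at 0 to 239 CPM, median 122.6, in lesions. Every primary sum was above every one of these lesion sums (log2 difference 3.00, SE 0.58, edgeR adjusted p = 0.00488). The lesion of mouse 33, too small for this fit with 6 cells, held 619 CPM. Ms4a7, a membrane-spanning protein of mature macrophages (chr19:11321039-11336146), was at 1167, 1257, 1522 and 1151 CPM in primary tumors and at 39.9 to 344 CPM, median 255, in lesions (log2 difference 2.44, SE 0.38, adjusted p = 0.000861). Its primary values lay close together and far above the highest of these 7 lesion sums. The lesion of mouse 37, too small for this fit with 7 cells, held 1252 CPM, inside the primary range.

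Adgre1 encodes F4/80, the classical surface marker of mouse macrophages (chr17:57358691-57483527). It was at 1032, 965, 1777 and 2096 CPM in primary tumors and at 79.8 to 595 CPM, median 243, in lesions, again without overlap (log2 difference 2.30, SE 0.40, edgeR adjusted p = 0.00269). The lysosomal protease legumain, Lgmn, was at 1486 to 2513 CPM in primary tumors against 199 to 997 CPM in lesions (log2 difference 1.91, SE 0.39, adjusted p = 0.00832). Dab2, an endocytic adaptor, was at 510.4 to 1374 CPM against 69.9 to 460 CPM (log2 difference 1.86, SE 0.43, adjusted p = 0.0252). The lesion of mouse 37, too small for this fit with 7 cells, held 1697 CPM of Lgmn and 668 CPM of Dab2, both inside the primary range. Without primary mouse 9 the adjusted p of Mrc1 and Lgmn no longer passed, and that of Dab2 was lost in 3 of 11 fits that left out a mouse.

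**Figure D4:**
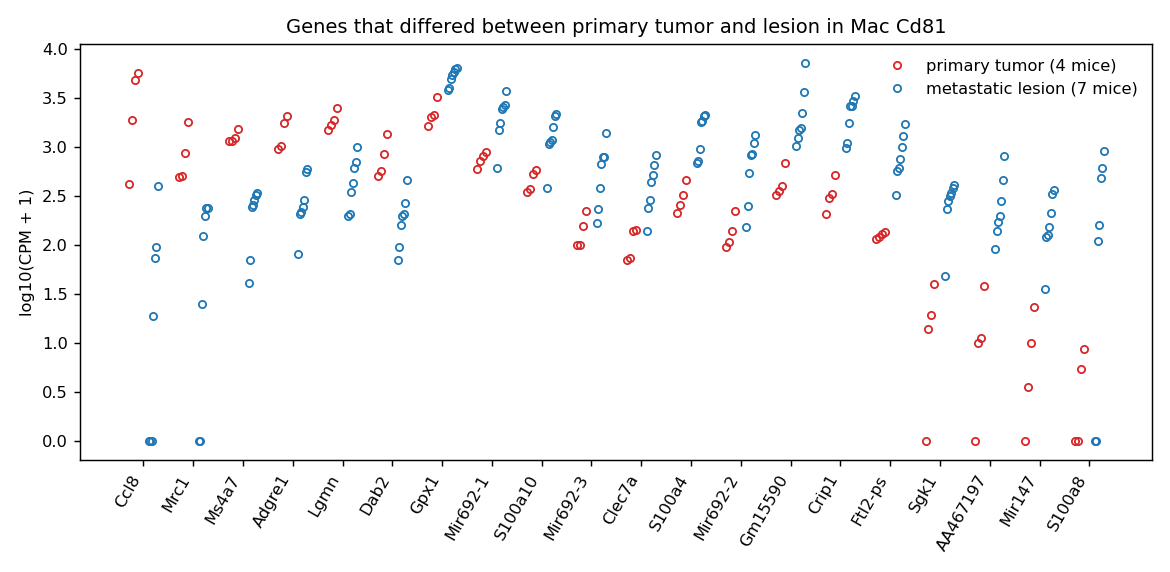
The 20 genes called between primary tumors (red, 4 mice) and lesions (blue, 7 mice), each point the log10(CPM + 1) of 1 mouse. Ccl8, Mrc1, Ms4a7, Adgre1, Lgmn and Dab2 are higher in primary tumors and the other 14 genes are higher in lesions.

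Among the genes that were lower in primary tumors, Crip1, a small LIM-domain protein, was at 516, 207, 301 and 331 CPM in mice 8, 9, 10 and 38. The lesions carried 978 to 3311 CPM, median 2636, and these groups were far apart (log2 difference -2.70, SE 0.41, edgeR adjusted p = 0.000670). The lesion of mouse 37, too small for this fit, held 556 CPM. S100a4, a calcium-binding protein of motile monocytes, was at 210 to 467 CPM against 686 to 2154 CPM in lesions (log2 difference -2.17, SE 0.39, adjusted p = 0.00269). The small lesion of mouse 37 held 167 CPM of S100a4, under every primary tumor. S100a10, the partner of annexin, also passed (-1.57, adjusted p = 0.0434). Sgk1, a serum- and glucocorticoid-induced kinase, was at 0 to 38.7 CPM against 47.6 to 413 CPM (log2 difference -3.74, SE 0.63, adjusted p = 0.00202). In the small lesion of mouse 37, Sgk1 was at 27.8 CPM, inside the primary range. The antioxidant enzyme Gpx1 (-1.17, adjusted p = 0.0316) and the beta-glucan receptor Clec7a, also called dectin-1 (-2.04, adjusted p = 0.0238), were lower by smaller margins, and in 6 of 11 fits that left out a mouse each of the 2 lost its call, as S100a10 did in 8. Crip1, Sgk1 and S100a4 kept theirs in all 11. With sums of at least 5 cells, S100a4 and Lgmn were no longer called.

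AA467197 and the miRNA gene Mir147 inside it moved together, at 0 to 37.2 and 0 to 22.3 CPM in primary tumors against 90.2 to 809 and 34.4 to 364 CPM in lesions. Their differences were -4.00 (SE 0.73, edgeR adjusted p = 0.00278) and -4.03 (SE 0.77, adjusted p = 0.00455). Reads of this locus could have been split between both entries, so they are 1 observation, and the tags do not measure a mature miRNA. The ferritin pseudogene Ftl2-ps (-2.75), the pseudogene Gm15590 (-2.52) and Mir692-1, Mir692-2 and Mir692-3 (-1.45, -2.28 and -2.03) also passed. Their assignment is uncertain, because such entries share sequence with other copies and Mir692-2 overlaps the end of Ftl2-ps. S100a8, a neutrophil alarmin, had the largest difference (-6.32, SE 1.13, adjusted p = 0.00269), at 0 to 7.68 CPM in primary tumors and 0 to 923 CPM in lesions. The summed neutrophil markers, 10 genes, ranged from 61.4 to 174 CPM in primary tumors and from 0 to 1821 CPM in lesion samples, and their part in the S100a8 value was not tested.

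The genes that define the population did not pass between primary tumors and lesions. C1qa was at 4153 to 4519 CPM in primary tumors and at 349, 3301, 765, 519, 761, 2255 and 2851 CPM in lesion mice 23, 24, 26, 28, 30, 31 and 36. The groups did not overlap, but lesions were widely spread (log2 difference 1.44, SE 0.47, edgeR adjusted p = 0.131). The lesions of mice 31 and 36 were sequenced from SB124 on, and mouse 24 owed most of its UMIs to the single cell from SB126. C1qc (1.35, adjusted p = 0.140), C1qb (0.59, adjusted p = 0.298) and Cd81 (1.52, adjusted p = 0.161) were likewise not called. For H2-Ab1 the difference was -0.33 (adjusted p = 0.636) and for Cd74 0.48 (adjusted p = 0.752), with lesion values from 1237 to 17917 CPM. Trem2, a lipid receptor, was at 13.7 to 111 CPM in primary tumors and 34.4 to 322 CPM in lesions (-1.59, adjusted p = 0.197). Cbr2, Vcam1, Fcgrt, Fcrls and Fcna did not reach the count needed for testing.

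By gene group, beside a median log2 difference of -0.02 over all 1310 genes, the resident and perivascular genes had a median of 1.64 and 3 of 8 tested members higher (Ccl8, Mrc1 and Ms4a7). Macrophage identity genes had a median of 0.73 with 3 of 11 higher (Adgre1, Lgmn and Mrc1) and scavenger and lysosomal genes 0.44 with 2 of 21 (Lgmn and Mrc1). Monocyte genes had a median of -1.10 with 2 of 6 lower (S100a4 and S100a10). No member passed among 9 C1q and complement genes (median 0.91), 6 MHC class II genes (-0.03), 17 type I interferon genes (0.73), 7 interferon-gamma genes (0.74), 5 Fc gamma receptors (1.13), 14 TREM2-associated lipid genes (-0.02), 7 glycolysis genes (-0.50) and 18 immediate early and heat shock genes (-0.50). Of 17 chemokines and cytokines, only Ccl8 passed (median -0.13). These lists are counted against the background shares given above, and no list was tested as a set. Of 20 resident genes listed, only 8 had the counts for testing. Ccl8 (6744 UMIs in primary tumors, 19 in lesions) entered through its tumor counts and S100a8 (6 and 113) through its lesion counts. List shares and medians thus depend in part on the count filter here too.

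The comparison was repeated within the batches from SB124 on, with the minimum lowered from 10 to 5 cells, between the same 4 primary tumors and lesions of 5 mice (31, 32, 33, 36 and 37, of which 31 and 36 were also among the 7 above). Of 1171 genes, 14 passed (edgeR, 1.2%), 4 higher (0.342%) and 10 lower (0.854%) in primary tumors. The 20 genes had been chosen with the same 4 primary sums and lesion mice 31 and 36, so this is no independent check. The batches and the minimum changed together here, and with the lower minimum alone, over all batches, 16 of 1131 genes passed. Of the 20 genes above, 16 were tested, all 16 with the same sign, 13 of them with an unadjusted p under 0.05 (beside 157 of all 1171 genes) and 2 with an adjusted p that passed (Crip1, -2.71, adjusted p = 0.00991, and Ftl2-ps, -2.59, adjusted p = 0.0109). Mrc1 (2.60, adjusted p = 0.0504), Ccl8 (3.55, adjusted p = 0.0606) and Adgre1 (1.39, adjusted p = 0.0877) did not pass. Ms4a7 (1.35, edgeR adjusted p = 0.204) and S100a4 (-0.84, adjusted p = 0.460) were smaller there, as were Ccl8 and Adgre1. Lgmn (0.99), Dab2 (1.03), Gm15590 (-1.43), Mir692-2 (-0.66) and Mir692-3 (-0.68) were smaller too. C1qa was at 0.67 (adjusted p = 0.221), C1qc at 0.10 (adjusted p = 0.941) and Cd74 turned to -0.65 (adjusted p = 0.373).

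The 14 genes called in the late batches are named after their values were seen. Higher in primary tumors were the monocyte chemoattractant Ccl7 (454 to 1545 CPM against 90.2 to 362 CPM, 2.74, edgeR adjusted p = 0.00959), the sorting nexins Snx2 (2.16) and Snx6 (2.80) and the clathrin adaptor subunit Ap2s1 (2.67). Lower in primary tumors was Cxcl2, a neutrophil chemoattractant (22.8 to 120.3 CPM against 359 to 1858 CPM, -3.87, adjusted p = 0.00654). Fibronectin, Fn1, was almost missing from primary Mac Cd81 cells (0 to 12.8 CPM against 122.6 to 1982 CPM, -5.85, adjusted p = 0.00959). Nr4a1 (-3.52) and Ier2 (-2.68) were the only called members of 18 immediate early and heat shock genes tested there. Ppp1r15a (-2.54), Nfkbia (-2.34), the myeloid factor Cebpb (-1.99) and Ly6i (-3.40), which are not on that list, were lower too. The part of the dissociation program in these values was not tested.

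In SB128 alone, primary mouse 8 stood beside lesions of mice 31, 32, 36 and 37, which is a single tumor and allows no test. This tumor and lesions 31 and 36 were among the samples in which the 20 genes had been called, so the values are a description. Of the 20 genes, 10 lay beyond all of these lesions in the direction of their call. Mrc1 was at 491 CPM in this tumor against 47.1, 0, 122.6 and 83.5 CPM, and Adgre1 at 1032 CPM against 613, 476, 215 and 807 CPM. Crip1 was at 516 CPM against 1909, 1429, 2652 and 556 CPM. Ccl8, at 418 CPM, lay within the lesions, which held 0, 762, 0 and 751 CPM. Ms4a7, at 1167 CPM, lay under lesion mouse 37 (1252 CPM). Lgmn, Dab2, S100a4, S100a8, Gm15590 and Mir692-2 also lay within the range of the lesions. Mir692-1 and Mir692-3, which had been called lower in primary tumors, were not lower in this tumor (896 and 221 CPM). They nearly equalled the highest lesion, mouse 31 (895.7 and 212 CPM). For a fit with batch as a term, sums were made per mouse and batch with at least 5 cells, which gave 12 lesion sums from 11 mice. Mouse 31 entered with 2 sums (SB124 and SB128) and without a term for the mouse. Without the batch term these sums gave 22 called genes, a fit that like the one with the term was chosen after seeing the data. With it 0 of 934 genes passed (edgeR, lowest adjusted p 0.0534, 53 genes with an unadjusted p under 0.05), 17 of the 20 genes kept their sign and 6 had an unadjusted p under 0.05 (Mrc1, Crip1, Sgk1, Clec7a, AA467197 and Mir147). Of the genes higher in primary tumors, Mrc1 stayed near its value (2.38), whereas Ccl8 (0.80), Ms4a7 (1.01), Adgre1 (0.87), Lgmn (0.61) and Dab2 (0.28) were smaller by more than 1.5 times, as were S100a4 (-0.63), Ftl2-ps (-1.23), Gm15590 (-0.59) and Gpx1 (-0.75) among the lower ones, and the 3 Mir692 entries turned positive. That term rests on mouse 8 as the only primary tumor that shares a batch with a lesion.

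Against the photoactivated cores, which hold cells from inside the metastasis, 129 of 1563 genes (8.25%) passed, 88 higher (5.63%) and 41 lower (2.62%) in primary tumors. The cores with at least 10 cells were those of mice 24, 26 and 30, with 60438 UMIs together. They were sequenced in SB118 and SB123 and the primary tumors in SB128 and SB132, so tissue and batch cannot be told apart, and the primary sums are the same 4 as above. The count fell to 62 without primary mouse 38 and rose to 224 without primary mouse 8. C1qa was at 727 to 1133 CPM in these cores, under every primary tumor (log2 difference 2.63, SE 0.35, edgeR adjusted p = 0.000287). C1qc (113, 364 and 1215 CPM; 2.46, adjusted p = 0.00662), C1qb (1.14, adjusted p = 0.0442) and the complement C3a receptor C3ar1 (1.76, adjusted p = 0.0496) also passed, which made 4 of 9 tested complement genes. Cd74 was at 1091 to 2034 CPM (2.90, adjusted p = 0.000287), the only one of 7 MHC class II genes called. C1qa, C1qc and Cd74 are the genes with the batch step. The core of mouse 31, which was sequenced after it and with 8 cells was too small for this fit, carried 3820 CPM of C1qa, 5933 CPM of C1qc and 42425 CPM of Cd74, the last 2 above every primary tumor.

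Members of other groups passed as well, beside a median log2 difference of 0.31 over all genes. Of 9 resident genes 5 passed (median 2.71), among them Selenop, which carries selenium (1175 ± 600 against 33.0 ± 36.8 CPM, 5.39, edgeR adjusted p = 0.000436), and the transcription factor Maf (2.71, adjusted p = 0.0342). Of 20 type I interferon genes 5 passed (median 1.98), namely Irf7, Isg15, Isg20, Oasl1 and Rsad2. Isg15, a ubiquitin-like protein, was at 421 ± 181 CPM in primary tumors and 24.2 ± 42.0 CPM in cores (4.86, adjusted p = 0.00991). Of 21 scavenger and lysosomal genes 6 passed, with the lysosomal protein progranulin, Grn, at 1161 ± 120 against 290 ± 51.2 CPM (2.38, adjusted p = 0.00225). The activating Fc gamma receptors Fcgr1 (1.76, adjusted p = 0.0274) and Fcgr4 (2.55, adjusted p = 0.0231) passed among 5. Of 14 immediate early and heat shock genes 3 were higher in primary tumors than in cores (Btg2, 3.66, Junb, 1.84, and Zfp36, 2.58) and none lower. The part of the dissociation program in these 3 was not tested. Of 7 monocyte genes 3 were lower, S100a4 (-2.62), S100a6 (-1.59) and S100a10.

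Several genes had no UMI in the cores. Those tested, such as Rsad2 and Isg20, entered through their tumor counts alone, so list shares and medians depend in part on the count filter. Counting 3 UMIs over the group as the limit (49.6 CPM), and taking the smaller of the pooled and the mean primary level, the antiviral Rsad2 was at least 6.82-fold, Vcam1 at least 5.95-fold, Fcgrt at least 5.51-fold, Fcrls at least 5.19-fold and Isg20 at least 3.68-fold higher in primary tumors. Vcam1 in primary mouse 8 (49.1 CPM) was itself under this limit. Cbr2 was at least 4.45-fold higher, but 283 of its 398 UMIs came from mouse 9. Without that mouse the bounds were 1.15-fold for Cbr2, 3.29-fold for Rsad2 and 3.53-fold for Fcgrt. Among called genes without overlap of the groups, the largest falls after S100a8 (-6.74) and AA467197 (-4.10) were those of Rpl35 (-3.14), Gm15590 (-2.80) and Ftl2-ps (-2.75). Rpl35, a ribosomal protein gene, also stood higher in B cells up to SB123 (median 1276 CPM) than from SB124 on (median 172 CPM). Pseudogenes made up 14 of the 41 genes that were lower (34.1%) and 211 of the 1563 tested (13.5%).

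Sections of metastases were sequenced on both sides of the step and gave 9 sums of at least 5 cells, set against the same 4 primary tumors. Of 1021 genes 25 passed (2.45%), 14 higher (1.37%) and 11 lower (1.08%) in primary tumors. Ccl8 was at 0 in 6 of 9 sections and reached 574 CPM in 1, so it overlapped with primary mouse 8 (4.96, SE 0.74, edgeR adjusted p = 0.000234). Ccl7 was at 0 to 227 CPM in sections, under all 4 primary tumors (454 to 1545 CPM, difference 3.60). In 6 cores of at least 5 cells it ranged from 52.8 to 2204 CPM and overlapped with the primary tumors. Ccl7 was not among the genes called against cores or pooled lesions. Against sections, the complement regulator properdin, Cfp (1.98), Selenow (2.27), Dab2 (2.14) and Grn (1.77) were also higher without overlap. Mrc1 (3.15, adjusted p = 0.00583), Selenop (2.41, adjusted p = 0.0128), Vcam1 (3.28, adjusted p = 0.0219) and Adgre1 (1.68, adjusted p = 0.0284) passed with overlap of the sums, and Lgmn (1.71, adjusted p = 0.0284) without. Folr2, the folate receptor of resident macrophages, had no UMI in 225888 section UMIs and was at least 9.40-fold higher in primary tumors, and the lectin ficolin A, Fcna, at least 4.51-fold. Of 108 Fcna UMIs 74 came from mouse 9, without which its bound was 1.81-fold. Lower in primary tumors were Mir147 (-4.83), AA467197 (-4.62), Cxcl2 (-3.06), Crip1 (-2.80) and Ftl2-ps (-2.66) as well as Sgk1 (-3.47, adjusted p = 0.0128), Nr4a1 (-2.86, adjusted p = 0.0437) and Nfkbia (-1.69, adjusted p = 0.0304). C1qa was not called (1.41, adjusted p = 0.101).

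Cores and sections, both from metastases, were compared with each other in 6 and 9 sums. None of 272 genes passed (percent called 0, edgeR), 10 had an unadjusted p under 0.05, and DESeq2 gave 0 with 14 such genes. In the 4 mice with both tissues, a fit with the mouse as a replicate block also called 0 of 170 genes, with 6 at an unadjusted p under 0.05. The sums of both tissues held 5 to 33 cells. C1qb was at 3082 to 7640 CPM in cores and 3020 to 8183 CPM in sections, and H2-Ab1 at 10761 to 21538 CPM and 10352 to 25448 CPM, with almost the same ranges.

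Mac Cd81 cells of lungs without metastasis asked how the lung cells with the same name compare with those of the tumor. The 4 lung sums (normal mice 1 and 3, relapse-free mice 6 and 7) held 5 to 9 cells each and 51275 UMIs together, all from the batches before SB124. Of 779 genes 127 passed (16.3%), 70 higher (8.99%) and 57 lower (7.32%) in primary tumors, which are again the same 4. Without primary mouse 10 the count was 52 and without relapse-free mouse 7 it was 272. Ccl8 had 6744 UMIs in primary tumors and none in the lungs, which is at least 55.2-fold higher for the mean level, although the tumors ranged from 418 to 5750 CPM, and it was absent from every lung sum while present in every tumor. Other monocyte attractants were higher as well, Ccl7 (3.18, edgeR adjusted p = 0.0134) and Ccl12 (2.90, adjusted p = 0.0176), so 3 of 11 chemokines passed. The scavenger receptor Msr1 was at 593 ± 190 CPM in tumors and 15.7 ± 31.4 CPM in lungs (5.05, adjusted p = 0.00153) and the Fc receptor Fcgr4 at 660.1 ± 224 against 27.1 ± 54.1 CPM (5.20, adjusted p = 0.00153).

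Of 6 glycolysis genes tested, 3 were higher in the tumor (median 2.17, beside 0.28 over all genes). They were lactate dehydrogenase Ldha (954 ± 86.6 against 227 ± 228 CPM), pyruvate kinase Pkm (1125 ± 168 against 283 ± 345 CPM) and triose phosphate isomerase Tpi1 (372 ± 105 against 47.1 ± 94.3 CPM). Of 28 type I interferon genes 7 had the counts for testing, and 4 passed (Ifitm3, Ly6a, Ms4a4c and Zbp1, median 2.33). Zbp1, a sensor of nucleic acids, had no UMI in lungs and was at least 5.42-fold higher. Ifitm7 (at least 4.77-fold), the pseudogene Gm7676 (at least 5.68-fold) and the matrix protease Mmp14 (at least 4.98-fold) had none either. Like Ccl8, such genes entered the test through their tumor counts alone, so list shares and medians depend in part on the count filter. The cathepsin Ctsb was at 3712 ± 585 against 682 ± 254 CPM (2.58, edgeR adjusted p = 0.000250).

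H2-Ab1 and most other MHC class II genes did not pass against the lung cells. H2-Ab1 was at 29774 ± 13549 CPM in lungs (12259 to 45159 CPM), with a difference of -0.79 (SE 0.40, edgeR adjusted p = 0.192), and 6 class II genes had a median of -0.47. Cd81 was at 1229 ± 1162 CPM in lungs against 553 ± 232 CPM in tumors (-0.83, adjusted p = 0.348), so its mean was higher outside the tumor but the sums overlapped. C1qa (2.24, adjusted p = 0.000250), C1qc (1.36, adjusted p = 0.0193) and Cd74 (1.63, adjusted p = 0.00727) were higher in tumors, while C1qb (0.68, adjusted p = 0.168), whose lesion ranges overlapped between the batches, was not called. Ms4a7 (0.73, adjusted p = 0.458) and Adgre1 (1.14, adjusted p = 0.163) were not called either, and their highest lung sums, at 2154 and 2058 CPM, were above or near the highest tumors. Crip1 was far lower in tumors (339 ± 129 against 6528 ± 2729 CPM, -4.09, adjusted p = 1.53e-05), as was the lysozyme gene Lyz1 (171 ± 99.8 against 2663 ± 3037 CPM, -3.85, adjusted p = 0.00105).

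Among called genes without overlap of the groups, the largest falls against the lung were those of Gm13341 (-5.32), Gm22761 (-4.59), Rps29 (-4.48), Gm25593 (-4.39) and the myosin light chain Myl6 (-4.21). Pseudogenes made up 23 of the 57 genes that were lower in tumors (40.4%), beside 15.8% of the 779 tested. In B cells Rps29 had a median of 399 CPM up to SB123 and of 33.1 CPM from SB124 on, and Myl6 one of 120.4 and 13.9 CPM. Mitochondrial transcripts took 33355 to 44157 CPM in the lung sums and 17550 to 20893 CPM in the tumors, and alveolar macrophage markers 0 to 1723 CPM and 86.0 to 238 CPM. Their part in these differences was not tested, and tissue and batch cannot be told apart.

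**Figure D5:**
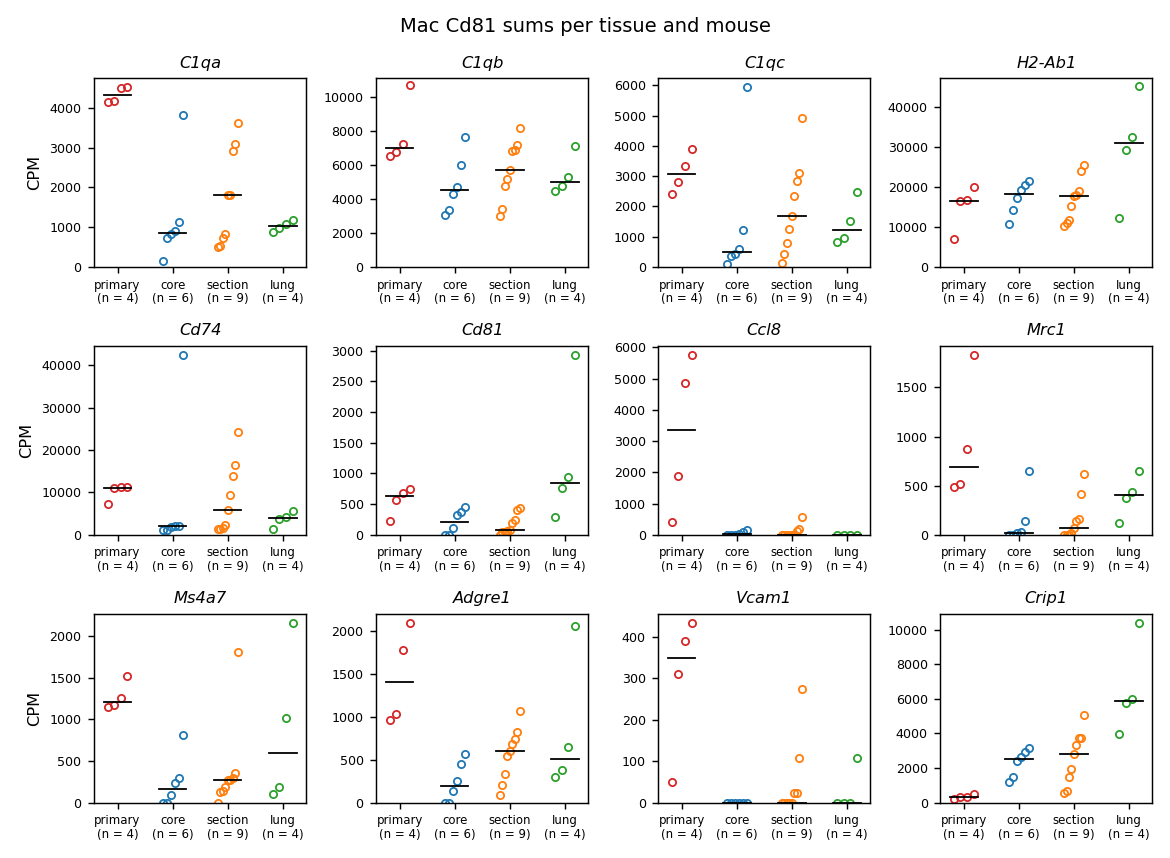
CPM of 12 genes in Mac Cd81 sums of at least 5 cells from primary tumors (n = 4), metastatic cores (n = 6), sections (n = 9) and lungs without metastasis (n = 4), with the median as a line. Ccl8 is at 0 in all 4 lung sums and in 6 of 9 sections, whereas H2-Ab1 is at 10352 CPM or more in all sums but that of primary mouse 9 (6948 CPM).

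The change from primary tumor to lesion was also set against that of neighbouring populations, by testing the difference of the changes. In simulated counts, the fit against Mon Thbs1 recovered 0% of 2-fold and 18% of 4-fold differences. The fit against Mac Isg20 recovered 2% and 30%. Few called genes therefore do not show that a change was shared. Against Mon Thbs1 monocytes of the same mice, 3 of 2391 genes passed (0.125%, edgeR with the mouse as a replicate block), 2 with a larger (0.0836%) and 1 with a smaller (0.0418%) primary minus lesion difference in Mac Cd81. The primary minus lesion difference was larger in Mac Cd81 for Ms4a7 (difference of log2 changes 3.66, SE 0.55, edgeR adjusted p = 0.00355) and C1qc (3.64, SE 0.59, adjusted p = 0.00528). For S100a4 the difference was more negative in Mac Cd81 (-1.95, SE 0.38, adjusted p = 0.0401). C1qc is one of the genes with the batch step. Its primary minus lesion difference in Mac Cd81 was 0.10 from SB124 on and -0.18 with batch as a term. With sums of at least 5 cells none of the 3 genes passed. The values were 3.13 for C1qc (edgeR adjusted p = 0.0728), 2.93 for Ms4a7 (adjusted p = 0.102) and -1.41 for S100a4 (adjusted p = 0.281). Against Mac Isg20 macrophages, 4 of 1846 genes passed (0.217%), all with a larger primary minus lesion difference in Mac Cd81. They were Acp5 (7.96, SE 1.65, adjusted p = 0.0386), Ccl7 (5.57, SE 0.86, adjusted p = 0.000470), Snx2 (3.34, SE 0.73, adjusted p = 0.0386) and Adgre1 (2.69, SE 0.60, adjusted p = 0.0433). The Mac Isg20 sums of primary tumors held 5 to 8 cells, and without the replicate block 0 and 1 genes passed. Acp5 had no UMI in any of these 4 sums, so its value depends on the prior count and is no measured fold. Mac Isg20 itself carried less Ccl7 in primary tumors (median 165 CPM, 0 to 3844) than in lesions (median 3308 CPM, 853 to 14618), opposite to Mac Cd81.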

How the data were processed

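Single CD31- CD45+ or CD31- GFP+ cells were sorted into 148 plates. Per the paper's methods and the labels, the authors mapped reads to mm10 with HISAT, dropped reads with several mapping positions, collapsed UMIs and discarded cells under 500 UMIs; bcl2fastq 2.15.0.4 is named in the submitters' processing notes. Each deposited plate file lists unnormalised UMI counts, with 52634 gene rows and a column for every well. Annotations came from the authors' deposited cell table; the sort gate left out doublets, per the methods, and no caller was run here. Clustering used the genes compared here.

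Counts were summed per mouse and tissue over at least 10 Mac Cd81 cells, or 5 for sections, cores against sections, lungs without metastasis and the comparison with Mac Isg20. The Mac Cd81 sums held 5368 to 672043 UMIs. edgeR 4.0.16 (R 4.3.3) was run with TMM scaling, filterByExpr and quasi-likelihood tests with Benjamini-Hochberg adjustment over all genes tested, and DESeq2 1.42.0 was an alternative. The interaction fits used the mouse as a block. Percentages were compared by exact permutation or sign-flip tests (scipy 1.17.1). Cores and sections of mice 23, 26, 30 and 31 are paired by mouse; correlations of their deviations were -0.0098, 0.1202, 0.1107 and 0.2388. Scripts were tested on simulated counts.

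The population, gene lists and alternatives were chosen with earlier results of these data known. Genes were named if they were population markers, were called between primary tumors and lesions without overlap of the groups (10 per direction) or as members of a list, ranked among the 10 highest ratios to other myeloid populations, or led another comparison (5 per direction); further genes are examples from the lists, named after their values were seen. Sums per mouse and batch of at least 5 cells, with and without batch as a term, and the batches from SB124 on, also at 5 cells, were added after seeing the data. Gene positions are from GENCODE on mm10 and promoters from RefSeq.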

Additional observations from a re-analysis of the deposited data

Results flagged for a closer look

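In 13 of 103 groups tested, a sample lay far from the others of its group by Dixon's criterion. Its nominal rate of about 1 in 20 holds for normal values in separate groups. Here the same primary sums enter several groups, and for Fcna, Cbr2 and Fcrls all other lesions were at 0. The count therefore cannot be set against that rate. Relapse-free mouse 29 held 2.03% Mac Cd81 cells, above the other 5 relapse-free lungs. Among lesions, mouse 24 had the highest Cd81 (653 CPM), mouse 28 the highest Ccl8 (399 CPM) and Fcrls (119.7 CPM), mouse 23 the highest Cbr2 (69.9 CPM), and mouse 30 the highest Fcna (47.6 CPM), Vcam1 (95.1 CPM) and Gm15590 (7277 CPM); the single deep cell of mouse 24 lies in its sum. Among primary tumors, mouse 9 had the lowest Cd74 (7196 CPM), mouse 8 the lowest Ccl7 (454 CPM), mouse 10 the highest Mmp14 (408 CPM) and mouse 38 the lowest Gm13341 (10.6 CPM). Among sections, mouse 33 had the highest Cxcl2 (1858 CPM). Several of these values are a few UMIs in a small sum.

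The change from primary tumor to lesion differed between Mac Cd81 and another population, by edgeR interaction test, for 7 genes. Against Mon Thbs1 these were C1qc (3.64), Ms4a7 (3.66) and S100a4 (-1.95) on the log2 scale. C1qc is one of the genes with the batch step, and none of them passed with sums of at least 5 cells. Against Mac Isg20 they were Adgre1 (2.69), Ccl7 (5.57), Snx2 (3.34) and Acp5, whose fitted 7.96 is no measured fold because Acp5 had no UMI in the 4 primary Mac Isg20 sums.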

How the results depend on the processing

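Counts of called genes depended on the filter, the tool and single mice. Between primary tumors and lesions, the 20 genes became 72 with DESeq2, 155 with a minimum of 10 UMIs over all sums, 127 in a fit of 3 groups (3 cores and 2 sections of at least 10 cells in place of the 7 pooled lesions, so the lesion sums changed too), 22 with sums per mouse and batch of at least 5 cells, 0 with batch as a term on these sums, and 12 to 52 without 1 mouse (12 without primary mouse 9 or lesion mouse 26, 35 without lesion 24, 52 without lesion 36). Against cores, 129 became 196 with DESeq2, 48 with sums of at least 5 cells, 34 with cells thinned to 500 UMIs and 62 to 224 without 1 mouse (67, 62 and 75 without primary 10, 38 and 9, 224 without primary 8, 69 and 74 without cores 24 and 30). Against sections, 25 became 52 with DESeq2, 322 with the UMI minimum, 7 thinned and 7 to 36 without 1 mouse (9, 11 and 7 without primary 10, 38 and 9, 13 without section 26). Against lungs, 127 became 204, 658 and 26 in the same order and 52 to 272 without 1 mouse (52, 54, 67 and 56 without primary 10, 38, 8 and 9, 201 and 207 without normal 1 and 3, 272 without relapse-free 7). Cores against sections stayed at 0 without any 1 mouse and with the replicate block. The difference from Mon Thbs1 gave 12 with DESeq2, 23 with the UMI minimum, 1 with sums of at least 5 cells, 0 with no replicate block and 2 to 6 without 1 mouse (5 without primary 8, 6 without lesion 24). The difference from Mac Isg20 gave 32, 164 with the UMI minimum, 1 with no replicate block and 1 to 68 without 1 mouse (68 without primary 38, 1 without primary 8 or lesion 30 or 31, 2 without primary 9 or 10 or lesion 37, 9 or 10 without lesion 24, 25 or 33). The UMI minimum moved the median log2 difference of all genes against lesions, cores, sections and lungs to 0.71, 1.66, 0.92 and 2.88, and with it the split against lesions, from 6 higher and 14 lower to 127 and 28. The fit of 3 groups, on these other 5 lesion sums, gave 91 and 36.

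Percentages kept their direction in all but 1 setting: cores against sections reversed to -3.53 points as a percent of macrophages. With cells of at least 1000 UMIs, the differences were 6.81 (cores), 6.70 (sections) and 2.07 points (section against distal lung) and no longer passed, nor did the last as a percent of macrophages (6.67 points). Without 1 mouse they ranged from 6.02 to 8.34, 6.45 to 8.77 and 0.934 to 1.93 points, core against margin from 0.682 to 3.58, and core against section from 0.0636 to 0.830.

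Single genes between primary tumors and lesions reversed with batch as a term for C1qc (-0.18), Cd74 (-0.12), Mir692-1 (0.16), Mir692-2 (0.19) and Mir692-3 (0.19), from SB124 on for Cd74 (-0.65), and for H2-Ab1 with the UMI minimum (0.089) and in the fit of 3 groups (0.15). Causes were not tested. At the depth of the core and lung sums, 3 UMIs over the group correspond to 49.6 and 58.5 CPM, which limits what can be seen of weaker genes.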
